A study of Homo sapiens with 30 samples.

Results

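The desmosome components were 10 genes picked by name from the RNA-seq table, DSG2, DSG3, DSC2, DSC3, DSP, JUP, PKP1, PKP2, PKP3 and PERP, and all 10 were found among its 26253 gene names. The rule uses gene names and no measured value, but the 10 genes were chosen with earlier results of these data known. Counts of them set beside shares of all genes below are therefore descriptions only. Each gene was followed through the FPKM (fragments scaled by transcript length and library size) of 4 cell lines, and through the ATAC-seq peaks (open chromatin) and the ERG ChIP-seq peaks that lay within 20 kb of its locus.

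Desmosomes are the cell junctions that tie the keratin filaments of neighbouring epithelial cells together. In the gap between cells, desmogleins (DSG genes) and desmocollins (DSC genes), members of the cadherin family, bind each other. Inside the cell, plakoglobin (JUP) and the plakophilins (PKP genes) hold the cadherin tails, desmoplakin (DSP) ties this plaque to keratin, and PERP is a membrane protein that stratified epithelia need for intact desmosomes and that p53 and p63 are known to activate. In the prostate, basal epithelial cells carry abundant desmosomes anchored to KRT5 and KRT14 filaments.

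All RNA came from RWPE1, a line of normal human prostate epithelial cells immortalised with a papillomavirus, grown in keratinocyte serum-free medium with EGF and bovine pituitary extract. RWPE1-Vector carried the empty retroviral vectors pQCXIH and pBabe-puro, RWPE1-ERG carried ERG isoform 1 in pQCXIH with empty pBabe-puro, RWPE1+mAKT carried constitutively active myristoylated AKT (mAKT) in pBabe-puro with empty pQCXIH, and RWPE1-ERG+mAKT carried both genes. ERG is the ETS transcription factor that the TMPRSS2 rearrangement switches on in prostate cancer, and the 4 lines ask what ERG does with and without active AKT. Each line was a selected population from a single parental line, labelled with 3 RNA-seq libraries. The table gives 1 FPKM per line pooled by the authors over them, so the differences below are given without a replicate error and without a test. Peaks came from 1 library per line: ATAC-seq of the 3 lines other than RWPE1-Vector, ERG ChIP-seq of RWPE1-ERG+mAKT and of VCaP (a prostate cancer line with its own ERG rearrangement, here given DMSO only), ERK2 ChIP-seq of RWPE1-Vector and RWPE1-ERG, and H3K27me3 ChIP-seq of these lines and of RWPE1-ERG S96E, an ERG mutant. For the ERK2 and H3K27me3 libraries the labels name pQCXIH and no second vector.

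ERG itself stood at 0.264, 358, 0.435 and 328 FPKM in RWPE1-Vector, in RWPE1-ERG, in RWPE1+mAKT and in RWPE1-ERG+mAKT, and AKT1 at 58.7, 64.2, 156 and 281 FPKM, high where the labels place each transgene. The 6 basal markers summed to between 2165 and 6487 FPKM and were lowest in RWPE1-ERG, a sum carried by KRT5 and KRT14, while KRT15 and CDH3 of the same list were lowest in RWPE1-Vector. The 7 luminal markers summed to between 1445 and 3619 FPKM and were highest there. That luminal sum came almost wholly from KRT8 and KRT18, since KLK3, which marks mature luminal cells, was listed at 0 FPKM in every line. The 6 mesenchyme markers, mainly VIM and FN1, summed to 826, 1293, 422 and 315 FPKM in the same order of lines, with COL1A2 and PDGFRB below 0.5 FPKM throughout. All 4 endothelial markers and the leukocyte marker PTPRC were below 0.5 FPKM in every line, while CD68 ranged from 24.3 to 28.9 FPKM. In bulk RNA, fewer cells of a type and less RNA per cell cannot be told apart, and the part of these marker shifts in the results below was not tested.

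The sequences under some of the ERG peaks near the desmosome genes are shown here with the promoter of PERP, the gene that differed most among the lines. Windows of 201 bases centred on the peak summit were read from the GRCh37 (hg19) reference, plus strand. Capitals mark the ETS core GGAA on either strand, which reads TTCC where it lies on the other strand, together with the flanking letters where it belongs to GGAAGTG. The first window lies 7.91 kb upstream of the PKP1 start, in intergenic sequence that was open in all 3 ATAC-seq lines. The second lies 512 bases upstream of the PKP2 start and was an ERG peak in VCaP. The next windows are in introns of JUP and DSP, and the last lies 12.2 kb upstream of DSP. All of these peaks were weak, with q-values of 0.0795 (PKP1), 0.0577 (PKP2), 0.701 (JUP intron) and 0.206 (DSP intron), and a still higher one upstream of DSP. Other peaks near JUP, DSP and PERP are not shown. Among them is a stronger JUP intron peak, with a fold enrichment over background of 4.24, whose window held GGAA 1 time.

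PKP1 upstream, chr1:201244624-201244824: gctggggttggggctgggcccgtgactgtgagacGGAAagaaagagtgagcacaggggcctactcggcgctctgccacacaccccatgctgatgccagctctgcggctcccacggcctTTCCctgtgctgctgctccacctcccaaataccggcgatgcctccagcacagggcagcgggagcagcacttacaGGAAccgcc

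PKP2 upstream, chr12:33050123-33050323: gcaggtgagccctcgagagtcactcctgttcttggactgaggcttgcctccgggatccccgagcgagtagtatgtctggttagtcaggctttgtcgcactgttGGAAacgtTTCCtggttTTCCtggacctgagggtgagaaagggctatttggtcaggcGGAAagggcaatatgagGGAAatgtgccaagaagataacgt

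JUP intron, chr17:39933795-39933995: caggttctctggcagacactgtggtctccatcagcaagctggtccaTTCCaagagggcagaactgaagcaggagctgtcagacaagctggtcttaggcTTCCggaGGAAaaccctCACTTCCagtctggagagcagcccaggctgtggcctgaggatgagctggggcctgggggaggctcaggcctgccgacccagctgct

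DSP intron, chr6:7543781-7543981: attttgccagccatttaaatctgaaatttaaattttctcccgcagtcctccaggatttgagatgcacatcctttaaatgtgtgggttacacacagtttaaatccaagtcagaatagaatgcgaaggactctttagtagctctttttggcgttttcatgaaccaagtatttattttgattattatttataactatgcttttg

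DSP upstream, chr6:7529644-7529844: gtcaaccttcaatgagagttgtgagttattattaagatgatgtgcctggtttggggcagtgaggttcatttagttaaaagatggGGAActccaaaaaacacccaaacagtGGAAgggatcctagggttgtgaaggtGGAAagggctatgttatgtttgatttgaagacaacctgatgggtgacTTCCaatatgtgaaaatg

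The PERP promoter is given as the 250 bases before the RefSeq start (GRCh38.p14, minus strand, in the direction of transcription). Here the capitals also mark TGAGTCA, the site that AP-1 factors are known to bind, which reads TGACTCA on the other strand.

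PERP promoter: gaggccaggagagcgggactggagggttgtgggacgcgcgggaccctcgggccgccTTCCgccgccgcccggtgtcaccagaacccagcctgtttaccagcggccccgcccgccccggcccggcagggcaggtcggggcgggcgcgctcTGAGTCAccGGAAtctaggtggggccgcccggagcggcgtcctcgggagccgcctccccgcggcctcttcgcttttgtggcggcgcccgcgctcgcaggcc

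Of the 5 windows, 4 held GGAA at least once and the DSP intron held none. The upstream window of PKP1 held 3 copies, that of PKP2 held 5 and the JUP intron held 4, while neither CGGAAGT nor AGGAAGT, longer ETS sites, was found in these 5 windows. Over the whole lists, GGAA was present in 87.5% of 9113 windows in RWPE1-ERG+mAKT and in 87.6% of 5919 windows in VCaP, so its presence near the desmosome genes, in 7 of 9 windows, does not set them apart. GGAAGTG, an ETS core that can join an AP-1 site, was found in 1 of the 9 windows, the JUP intron, and in 5.78% of all windows of that line. AGGAAGT was also in 1 of the 9, a window beyond the end of DSP, and in 8.05% of all. No window near a desmosome gene held the AP-1 site, which 8.45% of all windows in RWPE1-ERG+mAKT held.

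The RefSeq promoter table (300 bases, from 250 before to 50 after the start) held 8 of the 10 genes, with PKP2 and PKP3 not among them, and 2 starts each for JUP and DSC2. A gene is counted below where any of its starts held the motif, while the share over all is per promoter. Only PERP of the 8 held the AP-1 site, which 4.95% of all 35116 promoters held. GGAA was in all 8 and in 95.5% of all promoters. GGAAGTG was in the DSC2 and DSG3 promoters and in 11.2% of all. CAGGTG, the E-box that SNAI and ZEB repressors bind, was in the promoters of DSC2, DSG2, DSP and JUP and in 20.6% of all. AACCGGT, the site of GRHL factors, and the ETS sites CGGAAGT and AGGAAGT were in none of the 8, against 0.772%, 6.83% and 8.24% of all promoters.

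The level of the desmosome genes in RWPE1-Vector ranged from 4.19 to 301 FPKM, a scale that is per transcript length. Plakoglobin stood first at 301 FPKM, followed by PERP at 119, PKP1 at 97.5, PKP3 at 72.9, DSG2 at 54.5 and DSP at 52.2. PKP2 at 18.7, DSC3 at 13.8, DSG3 at 9.43 and DSC2 at 4.19 FPKM were the lowest. The epidermal partners DSG1, DSG4 and DSC1 were below 0.1 FPKM in every line, so DSG2 and DSG3 were the desmogleins detected above 1 FPKM and DSC2 and DSC3 the desmocollins. With 1 value per line, the spread between neighbours in this order cannot be given.

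**Figure D1:**
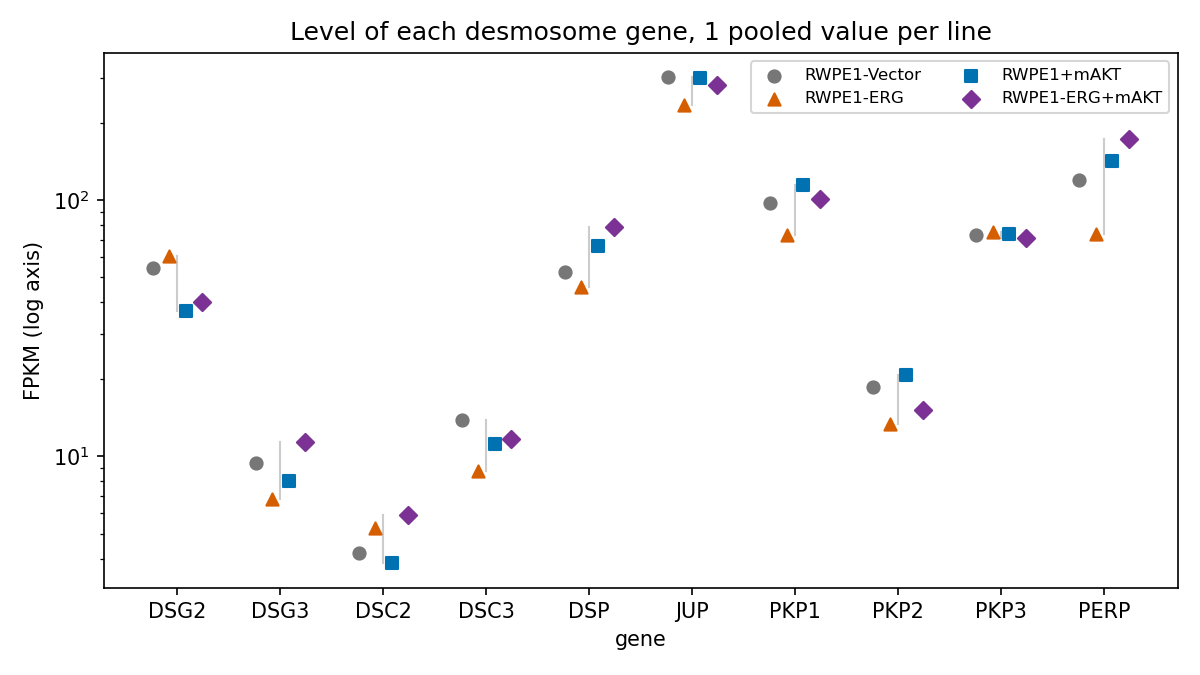
FPKM of the 10 desmosome genes on a log axis, 1 point per line pooled by the authors, with a grey bar from the lowest to the highest line and no replicate error. RWPE1-ERG was the lowest line for 7 of the genes, PERP spread from 73.4 to 173 FPKM, and PKP3 stayed between 70.9 and 74.8 FPKM.

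The comparison of RWPE1-ERG with RWPE1-Vector asks what ERG does without added active AKT. In it PERP and DSC3 fell, and no desmosome gene rose. Ratios were taken on the log2(FPKM + 1) scale, and a gene is said to have risen or fallen only where the ratio was at least 1.5-fold (0.58 on the log2 scale). This limit was passed downwards by 2 of the 10 genes and by 2.92% of the 12666 genes tested (FPKM of at least 1 in any line), and upwards by none of the 10 and by 7.27% of all. Of the 10 ratios 7 were below 0, and their median was -0.39 against -0.01 over all tested genes. The FPKM of RWPE1-ERG sum to more than those of the other lines, and when every line was rescaled to the same sum, the median of all tested genes moved by -0.48, and 7 of the 10 genes and 36.4% of all tested genes fell, with all 10 ratios below 0. Medians of all tested genes are therefore given beside those of the 10, while the limit itself was applied to ratios that were not centred.

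PERP measured 119 FPKM in RWPE1-Vector, 73.4 in RWPE1-ERG, 142 in RWPE1+mAKT and 173 in RWPE1-ERG+mAKT. RWPE1-ERG was thus the lowest and RWPE1-ERG+mAKT the highest of the lines. With ERG alone PERP fell by 0.69 on the log2 scale, and 2.04% of tested genes had a ratio as low or lower. DSC3, the desmocollin of basal and stratified epithelium, measured 13.8 FPKM in RWPE1-Vector, 8.78 in RWPE1-ERG, 11.2 in RWPE1+mAKT and 11.7 in RWPE1-ERG+mAKT. It was highest in the vector line and fell by 0.60 with ERG alone, a ratio that 2.75% of tested genes matched or passed downwards. DSC3 lay just past the limit, and the gene next to it inside the limit was PKP2, at -0.45.

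The plaque genes stayed within the limit with ERG alone. Plakoglobin measured 301, 234, 298 and 282 FPKM in RWPE1-Vector, in RWPE1-ERG, in RWPE1+mAKT and in RWPE1-ERG+mAKT, lowest in RWPE1-ERG with a ratio of -0.36. PKP1, the plakophilin of stratified epithelium, measured 97.5, 72.8, 114 and 101 FPKM in the same order, with a ratio of -0.42. PKP2, the plakophilin found in most epithelia and in heart, measured 18.7, 13.4, 20.9 and 15.1 FPKM, lowest in the lines with ERG. PKP3 was nearly level at 72.9, 74.8, 73.5 and 70.9 FPKM, and its ratios in the 5 comparisons lay between -0.08 and 0.04. For DSP the values were 52.2, 45.7, 66.3 and 78.2 FPKM, lowest in RWPE1-ERG and highest in RWPE1-ERG+mAKT.

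Active AKT alone moved no desmosome gene past the limit in either direction, against 2.19% of tested genes that rose and 1.89% that fell in RWPE1+mAKT over RWPE1-Vector. The gene nearest to the limit was DSG2, the desmoglein of simple and other epithelia, with values of 54.5 FPKM in RWPE1-Vector, 60.3 in RWPE1-ERG, 37.0 in RWPE1+mAKT and 40.1 in RWPE1-ERG+mAKT. Both mAKT lines were below both lines without mAKT, and the ratio for mAKT alone was -0.55, which 2.15% of tested genes matched or passed downwards. The other 9 ratios lay between -0.28 (DSC3) and 0.34 (DSP), with 5 of the 10 above 0 and 5 below it.

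**Figure D2:**
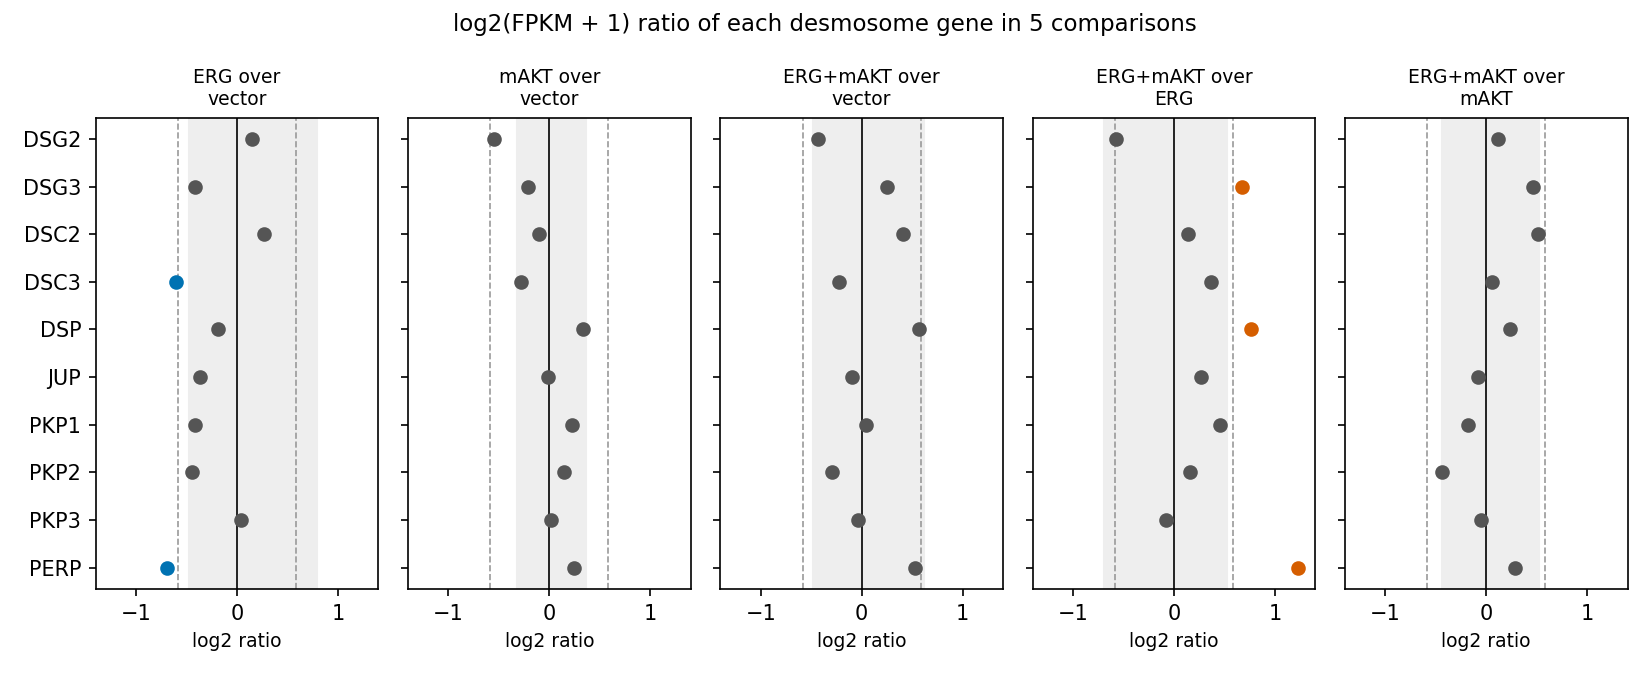
Ratio of log2(FPKM + 1) for each desmosome gene in 5 comparisons of the 4 lines, with dashed lines at the 1.5-fold limit and a grey band from the 5th to the 95th percentile of all tested genes. Blue points fell and orange points rose past the limit: DSC3 and PERP with ERG over vector, and DSG3, DSP and PERP with ERG+mAKT over ERG. The comparisons share lines and are not independent of each other.

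The next comparison asks what mAKT adds to ERG. In RWPE1-ERG+mAKT over RWPE1-ERG, PERP, DSP and DSG3 rose and none of the 10 fell. This is 3 of 10 genes against 4.21% of tested genes that rose, while 6.85% of tested genes fell. PERP rose by 1.23 on the log2 scale, from 73.4 to 173 FPKM, and 1.48% of tested genes had a ratio as high. DSP rose by 0.76, from 45.7 to 78.2 FPKM. DSG3, the desmoglein of basal layers and the antigen of pemphigus vulgaris, measured 9.43 FPKM in RWPE1-Vector, 6.82 in RWPE1-ERG, 8.01 in RWPE1+mAKT and 11.4 in RWPE1-ERG+mAKT, and rose by 0.67 between the ERG lines. DSG2 went the other way, with a ratio of -0.58 that ended just inside the limit, from 60.3 to 40.1 FPKM, and just past it, at -0.59, with a pseudocount of 0.1. When every line was rescaled to the same sum, 6 of the 10 and 13.5% of all tested genes rose, and the median of all tested genes moved by 0.32. The median of the 10 ratios was 0.32 against -0.04 over all tested genes.

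Against RWPE1-Vector, RWPE1-ERG+mAKT had no desmosome gene past the limit, where 5.41% of tested genes rose and 3.34% fell. The nearest were DSP at 0.57, with 52.2 and 78.2 FPKM, and PERP at 0.53, with 119 and 173 FPKM. When the ratios were centred on the median of all tested genes, -0.06, both passed the limit, at 0.63 and 0.59, and 6.05% of tested genes then rose. Against RWPE1+mAKT none of the 10 passed the limit either, where 4.43% of tested genes rose and 2.46% fell. The outermost there were DSC2 at 0.51, with 3.83 FPKM in RWPE1+mAKT and 5.89 in RWPE1-ERG+mAKT, and PKP2 at -0.44. DSC2, the most widely expressed desmocollin, measured 4.19 FPKM in RWPE1-Vector and 5.25 in RWPE1-ERG and was higher in both lines with ERG than in both without.

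The 10 genes also differed in how far the ERG ratio changed once mAKT was present, taken as the log2 ratio of RWPE1-ERG+mAKT over RWPE1+mAKT minus that of RWPE1-ERG over RWPE1-Vector. PERP had the largest such difference, 0.98, from -0.69 without mAKT to 0.28 with it. DSG3 followed at 0.88, from -0.42 to 0.46, and DSC3 at 0.65, from -0.60 to 0.05. These 3 of 10 were past 1.5-fold, as were 4.38% of tested genes in this direction, while 8.38% of tested genes and none of the 10 were past it in the other direction. DSP was next at 0.42, from -0.19 to 0.23. PKP2 had a difference of 0.01, with ERG ratios of -0.45 and -0.44, and DSG2 one of -0.03. None of these differences was tested, since each line has 1 pooled value. They also depend on the scaling of RWPE1-ERG. When every line was rescaled to the same sum, the median ERG ratio of all tested genes moved by -0.48 without mAKT and by 0.02 with it. The genes past 1.5-fold in this difference were not counted under that scaling.

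**Figure D3:**
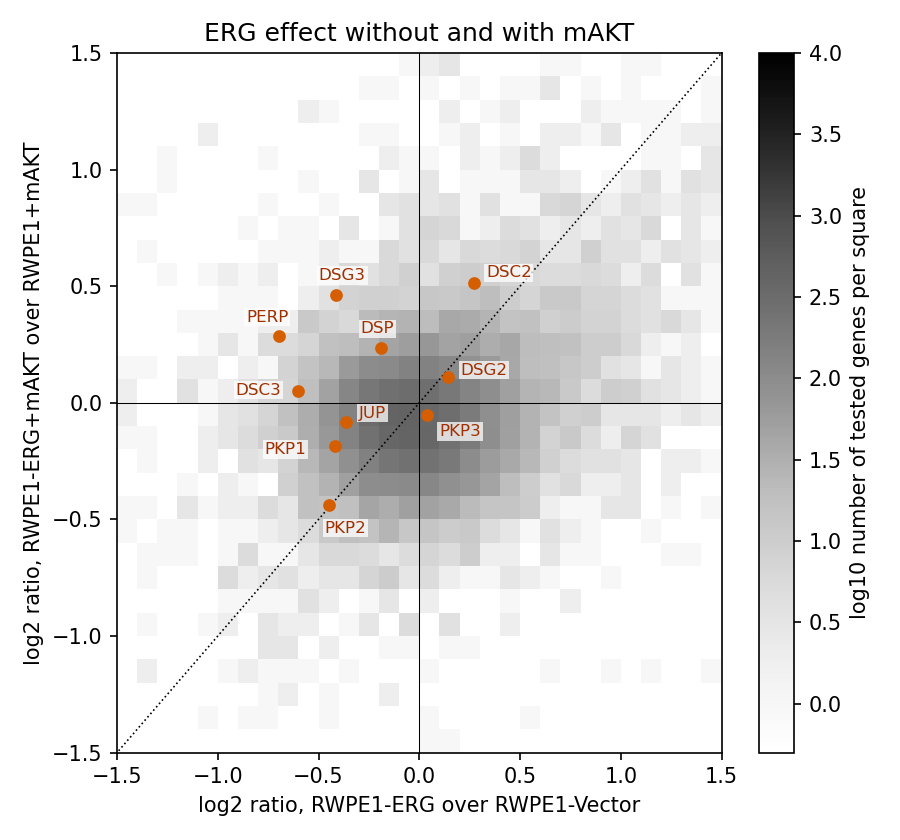
ERG effect on each desmosome gene with mAKT (vertical axis, log2 ratio) against that without mAKT (horizontal axis, log2 ratio), over grey squares whose shade is the log10 number of tested genes. On the dotted diagonal the effects would be equal. PERP, DSG3, DSC3 and DSP lie above the diagonal in the quadrant where the ratio was below 0 without mAKT and above 0 with it, whereas PKP2, PKP3 and DSG2 lie close to it.

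Within each family, the balance of partners differed between lines. The ratio of DSG2 to DSG3 FPKM was 5.78 in RWPE1-Vector, 8.85 in RWPE1-ERG, 4.62 in RWPE1+mAKT and 3.51 in RWPE1-ERG+mAKT, so DSG2 made up 89.8% of desmoglein FPKM with ERG alone and 77.8% with both genes. The ratio of DSC3 to DSC2 was 3.30 in RWPE1-Vector and 2.92 in RWPE1+mAKT but 1.67 in RWPE1-ERG and 1.98 in RWPE1-ERG+mAKT. This second balance was thus lower in both lines with ERG, irrespective of mAKT. The plakophilins differed less in their shares, with PKP1 at 45.2% to 54.8% of plakophilin FPKM, PKP3 at 35.2% to 46.5% and PKP2 at 8.10% to 9.99%. Summed over the 4 desmosomal cadherins, the level was 81.9 FPKM in RWPE1-Vector, 81.1 in RWPE1-ERG, 60.0 in RWPE1+mAKT and 69.0 in RWPE1-ERG+mAKT, a sum set mainly by DSG2. The ratio of plakoglobin to desmoplakin FPKM was highest in RWPE1-Vector, at 5.75, and lowest in RWPE1-ERG+mAKT, at 3.60.

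The genes whose pattern over the 4 lines was most like that of PERP were TEX15, KRT17 and BCL2L11. Their Euclidean distances from PERP were 0.16, 0.16 and 0.17, on log2(FPKM + 1) values centred on each gene's mean over the lines. KRT17, a keratin of basal and stratified epithelium, measured 3105 FPKM in RWPE1-Vector, 1768 in RWPE1-ERG, 3262 in RWPE1+mAKT and 4542 in RWPE1-ERG+mAKT, the same order of lines as PERP. For DSC3 the nearest were ZC3HAV1L, CNOT4 and RASSF5, at 0.04, 0.05 and 0.05. With 4 values per gene and 12666 genes, close matches are easily found.

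Among the keratins that desmosomes anchor, the ratios spread more widely than in the desmosome genes. With ERG alone 5 of 11 keratins fell (KRT5, KRT14, KRT6A, KRT16 and KRT17) and 5 rose (KRT15, KRT8, KRT18, KRT19 and KRT7). KRT5, the partner of KRT14 in basal filaments, measured 3126 FPKM in RWPE1-Vector, 1169.8 in RWPE1-ERG, 3642 in RWPE1+mAKT and 3519 in RWPE1-ERG+mAKT. It was low only in RWPE1-ERG, as PERP was. KRT14 measured 2936, 699.5, 2527 and 1185 FPKM, low in both lines with ERG. When mAKT was added to ERG, 7 of the 11 rose, among them KRT5 by 1.59 and KRT16 by 3.42 on the log2 scale, and KRT8, KRT18 and KRT7 fell. Summed FPKM of the basal markers, set by KRT5 and KRT14, was also lowest in RWPE1-ERG, although KRT15 and CDH3 were higher there than in RWPE1-Vector, and its part in the values of PERP and DSC3 was not tested.

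**Figure D4:**
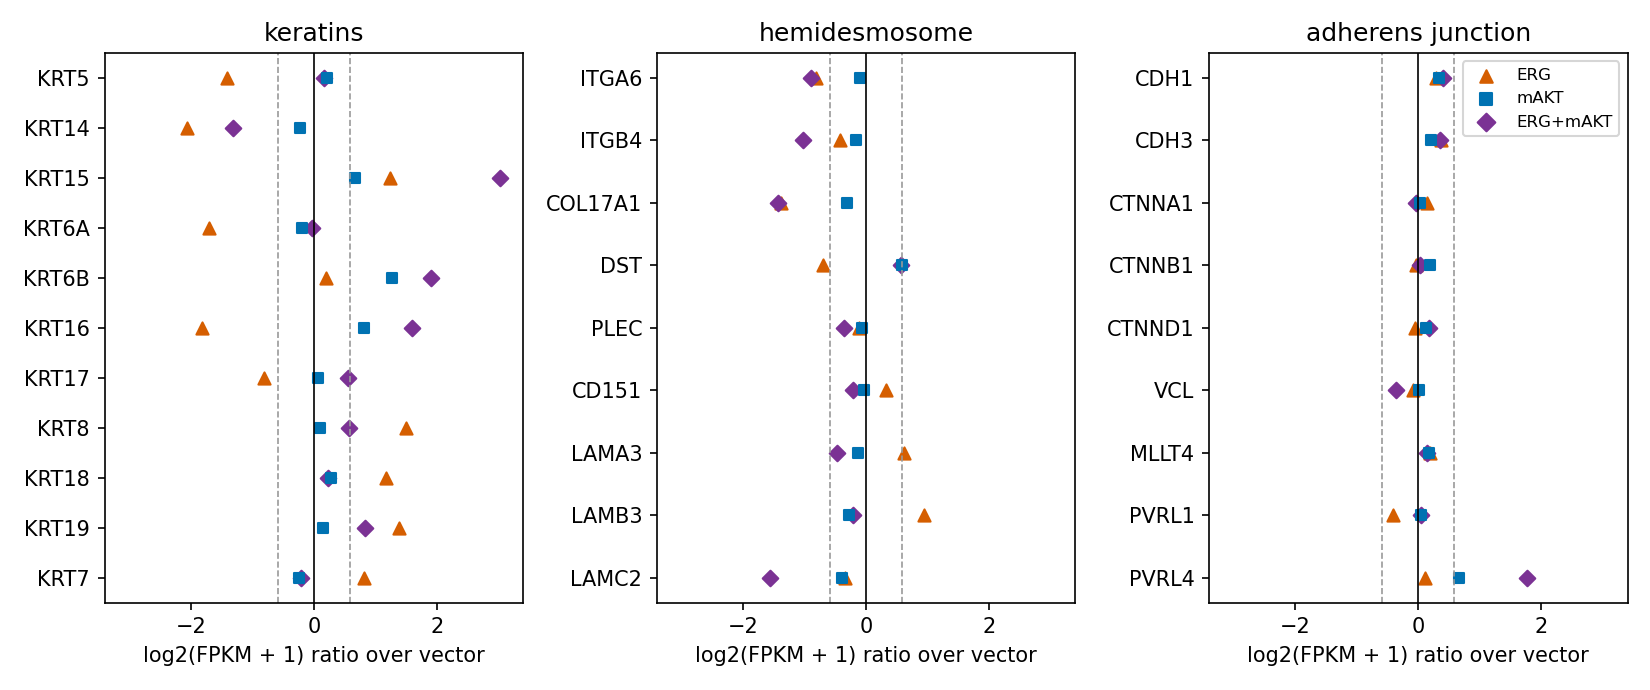
Ratios of log2(FPKM + 1) over RWPE1-Vector for the genes of 3 lists, with triangles for RWPE1-ERG, squares for RWPE1+mAKT, diamonds for RWPE1-ERG+mAKT and dashed lines at the 1.5-fold limit. Keratins spread from -2.07 to 3.03 and hemidesmosome genes from -1.57 to 0.94, while in the adherens junction list PVRL4 alone passed the limit.

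The other junction genes did not move as one. None of the 4 tested among the other desmosome and plakin genes (PKP4, PPL, EVPL and CDSN) passed the limit in any of the 5 comparisons. In the adherens junction list, none of 9 passed it with ERG over vector, and PVRL4, a nectin, rose in the other 4 comparisons, from 0.522 FPKM in RWPE1-Vector to 4.18 in RWPE1-ERG+mAKT. CDH1, the E-cadherin gene, measured 33.7, 41.2, 43.0 and 44.9 FPKM in RWPE1-Vector, in RWPE1-ERG, in RWPE1+mAKT and in RWPE1-ERG+mAKT. Hemidesmosomes anchor basal cells to the matrix. In that list ITGA6, COL17A1 and DST fell with ERG alone and LAMA3 and LAMB3 rose, of 9 genes. ITGA6 measured 125, 70.9, 116 and 67.2 FPKM and COL17A1 210, 79.4, 170 and 76.8 FPKM, so both were low in each line with ERG. Unlike PERP, neither was higher in RWPE1-ERG+mAKT than in RWPE1-ERG.

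Among 17 genes known to regulate desmosome genes or adhesion, 14 passed the filter on low values. With ERG alone 3 fell, the epithelial factors TP63, KLF4 and KLF5, and none rose. With mAKT added to ERG 8 rose and SNAI2 fell. The 8 include SNAI1, a repressor related to SNAI2, which went from 0.756 to 1.77 FPKM. TP63, the basal cell master regulator, measured 36.3 FPKM in RWPE1-Vector, 21.3 in RWPE1-ERG, 39.2 in RWPE1+mAKT and 38.0 in RWPE1-ERG+mAKT, low in RWPE1-ERG alone. KLF5 was also lowest in RWPE1-ERG, with 58.3, 35.1, 56.0 and 57.4 FPKM. GRHL1, a grainyhead factor of epithelia, measured 1.76, 1.06, 3.20 and 5.42 FPKM, and GRHL3 0.743, 0.511, 1.29 and 4.70 FPKM, both highest in RWPE1-ERG+mAKT. SNAI2, a repressor of epithelial cadherins, measured 68.5, 55.9, 54.9 and 35.0 FPKM. The related repressors ZEB1 and ZEB2 and the protease MMP9 were below 1 FPKM in every line.

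Chromatin at the starts of the desmosome genes was open in every line profiled, with 1 exception. An ATAC-seq peak lay within 500 bases of the start of all 10 genes in RWPE1-ERG and in RWPE1+mAKT, as it did for 91.6% and 90.9% of tested genes, and of 9 genes in RWPE1-ERG+mAKT, where 87.9% of tested genes had one. The exception was DSG3. Its start peak had a fold enrichment over background of 5.90 in RWPE1-ERG and 6.31 in RWPE1+mAKT and was not called in RWPE1-ERG+mAKT, the line in which DSG3 RNA was highest, at 11.4 FPKM. The list of RWPE1-ERG+mAKT was also the shortest, with 42081 peaks against 63354 in RWPE1-ERG and 57999 in RWPE1+mAKT. PERP had a start peak of 6.81, 5.82 and 5.48 in RWPE1-ERG, in RWPE1+mAKT and in RWPE1-ERG+mAKT, and DSC3 one of 6.36, 8.11 and 7.16. The ATAC-seq of RWPE1-Vector is not used here, so no change from vector can be given, and with 1 library per line no difference in enrichment was tested.

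Within 20 kb of the loci there were 46 distinct ATAC-seq peaks in RWPE1-ERG, 55 in RWPE1+mAKT and 38 in RWPE1-ERG+mAKT. Every gene had at least 1 in each line, as did 98.4%, 98.3% and 97.7% of tested genes. PKP1 had 9, 14 and 9 in this order of lines, and JUP had 10, 9 and 7. PKP2, the longest locus at 106101 bases, had 2 in each line. Over all tested genes the median was 4, 4 and 3 peaks per gene. The DSC2 locus of the table reaches 60.4 kb upstream of the DSC2 start, across DSC1. In RWPE1+mAKT 2 of the 4 peaks counted for DSC2 lie in that stretch, inside DSC1. The DSG2 and DSG3 windows overlap on chromosome 18, so 2 peaks of each list were near both genes and were counted once in the totals.

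Many peaks near the desmosome genes were shared between lines, as were many peaks of the whole lists. Of the 61 merged regions, 33 were called in all 3 lines, 14 in RWPE1+mAKT only, 4 in RWPE1-ERG only and 1 in RWPE1-ERG+mAKT only. Merged regions were not counted over the whole lists, so these counts have no share to be set against. Of the 46 peaks of RWPE1-ERG near these genes, 89.1% overlapped a peak of RWPE1+mAKT, against 72.7% of all RWPE1-ERG peaks. Of the 55 peaks of RWPE1+mAKT, 70.9% overlapped a peak of RWPE1-ERG, against 79.3% of all. A peak of RWPE1-ERG+mAKT was overlapped by 76.1% of the RWPE1-ERG peaks near these genes, against 58.5% of all. For the RWPE1+mAKT peaks this was 63.6%, against 64.5% of all. Of the 38 peaks of RWPE1-ERG+mAKT, 92.1% and 94.7% overlapped peaks of RWPE1-ERG and RWPE1+mAKT, near the 88.4% and 89.3% over the whole list. Of the 14 regions called in RWPE1+mAKT only, 6 lay near PKP1 and 3 were counted for DSC2. Those upstream of the DSC2 start lie inside DSC1.

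The strongest open regions lay away from the starts for 7 of the genes in RWPE1-ERG. This was not counted over all tested genes, so it has no share to be set against. At DSC3 an intronic region on chromosome 18 (28591338 to 28591751 in RWPE1-ERG, hg19), 31.2 kb into the gene, had an enrichment of 12.6, 10.1 and 11.7 in RWPE1-ERG, in RWPE1+mAKT and in RWPE1-ERG+mAKT. This was the highest value near any of the 10 genes in each line. The region upstream of PKP1 whose sequence opens this account had 11.5, 7.83 and 11.5. An intron of DSP, about 12.1 kb into the gene, had 11.4, 7.20 and 5.79. In RWPE1-ERG+mAKT the start region of DSP was higher, at 7.11. At the 3' end of PERP, a region on chromosome 6 near 138409305 to 138409923 had 9.16 in RWPE1-ERG, 4.90 in RWPE1+mAKT and 9.02 in RWPE1-ERG+mAKT. The RWPE1+mAKT peak was 2172 bases long and also covered a neighbouring site that was called apart in the other lines. These values therefore cover unlike stretches. In RWPE1+mAKT the start region of PERP was higher, at 5.82. A PERP intron peak 7.4 kb into the gene, at 7.04 in RWPE1-ERG and 3.64 in RWPE1+mAKT, was not called in RWPE1-ERG+mAKT. For DSG3 the highest in RWPE1-ERG was an intron region 6.6 kb into the gene, with 8.93, 6.78 and 6.64. In the other lines the DSG2 start, also within 20 kb of DSG3, was higher, at 6.79 and 8.53. JUP had its highest in RWPE1-ERG 6.47 kb upstream of the start, at 9.13, and PKP3 23.0 kb beyond its start, past the end of the locus, at 6.19. The PKP3 region in RWPE1-ERG is nearer to another gene, with its centre 2328 bases upstream of the SIGIRR start. The start regions were the highest for DSG2, with 7.68, 6.79 and 8.53, and for PKP2, with 7.11, 5.92 and 7.12, and DSC2 had 4.87, 3.80 and 3.88 there.

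**Figure D5:**
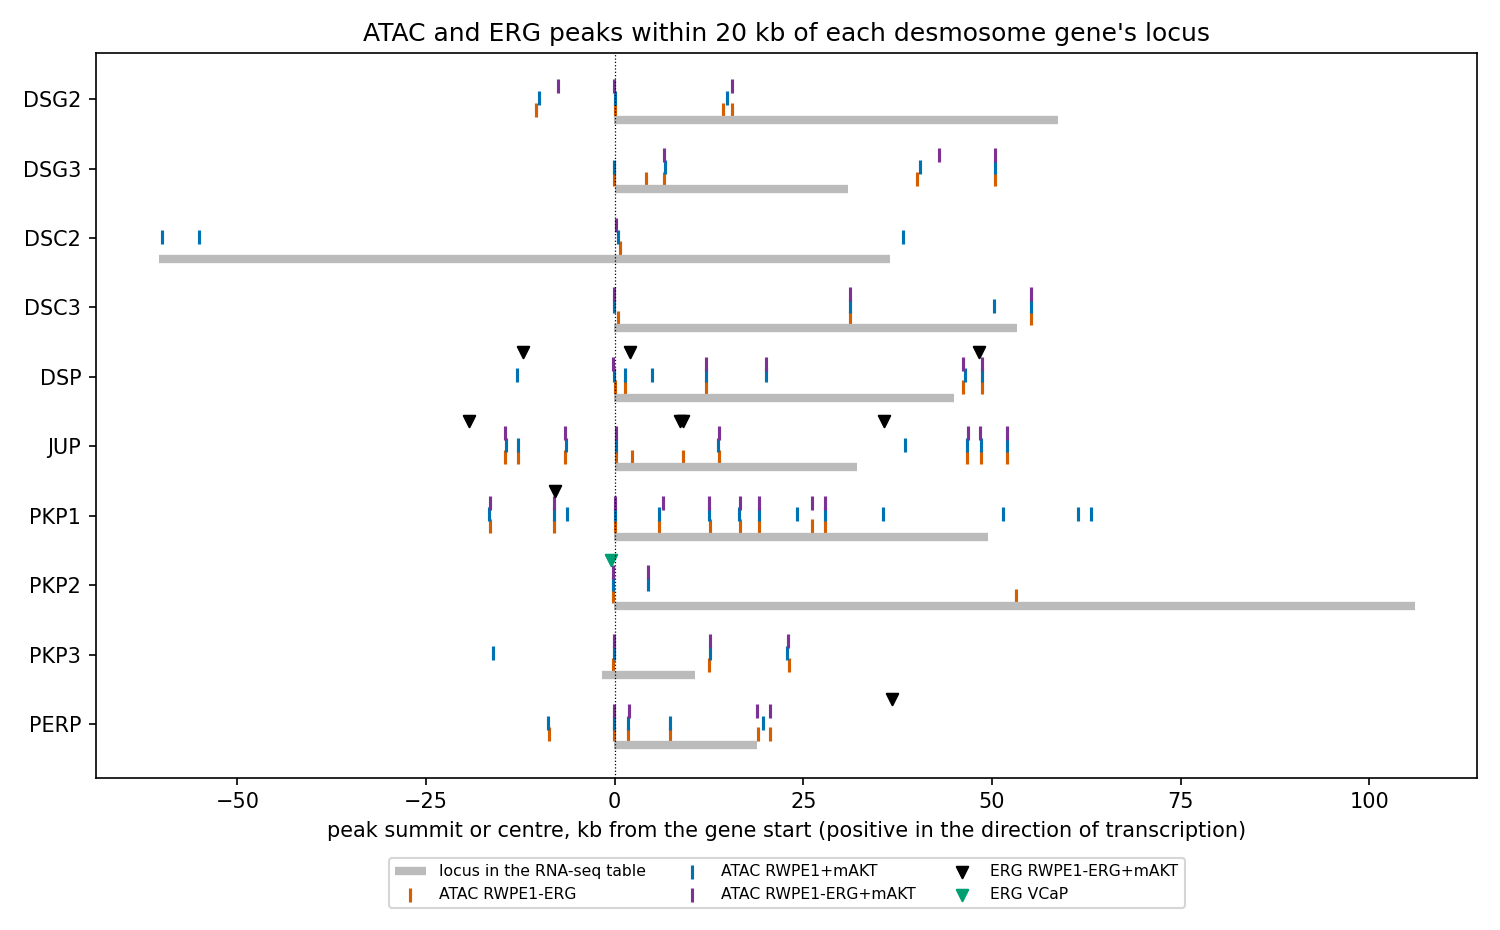
Positions of ATAC-seq peaks (ticks, coloured by line) and ERG ChIP-seq peaks (triangles) within 20 kb of each desmosome gene, in kb from the gene start, over a grey bar for the locus. All genes have ticks at the start, ERG triangles of RWPE1-ERG+mAKT appear at DSP, JUP, PKP1 and PERP, and the single VCaP triangle is at PKP2.

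ERG peaks of RWPE1-ERG+mAKT lay within 20 kb of 4 of the 10 genes, with 4 at JUP, 3 at DSP and 1 each at PKP1 and PERP, and 32.5% of tested genes had such a peak. Over all tested genes the mean was 0.476 peaks per gene, and the median fold enrichment of the 9 peaks, 3.53, was that of the whole list. None of these 9 peaks had a q-value of 0.01 or less. In the whole list 450 of the 9113 peaks did, and 2.44% of tested genes had such a peak within 20 kb. DSC3, which fell with ERG alone, had no ERG peak within 20 kb, and neither had DSG2, DSG3, DSC2, PKP2 or PKP3. The PERP peak, on chromosome 6 from 138391729 to 138391837, was 36.7 kb from the PERP start beyond its 3' end and had a fold enrichment of 2.94 and a q-value of 1.

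The PKP1 peak was the strongest of the 9, with a fold enrichment of 4.53 and a q-value of 0.0795. It spans 201244677 to 201244785 on chromosome 1 and was the only one of the 9 that overlapped ATAC-seq peaks in all 3 lines. It also overlapped an ERK2 peak of RWPE1-Vector, with an enrichment of 4.00. The JUP intron peak shown above (39933805 to 39933956 on chromosome 17, enrichment 3.53) overlapped an ATAC-seq peak in RWPE1-ERG alone, at 3.73. A neighbouring peak in the same gene had 4.24, and the other JUP peaks lay between genes, 35.7 kb from the JUP start, and in an intron of P3H4. The peaks of DSP were 12.2 kb upstream at 2.82, in the first 2 kb of the gene at 4.24, and 48.3 kb from the DSP start at 3.53. This last one lies 227 bases upstream of the start of SNRNP48 and is nearer to that gene. None of the 3 DSP peaks overlapped an ATAC-seq peak.

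In VCaP the only ERG peak near a desmosome gene was that of PKP2, from 33050189 to 33050363 on chromosome 12, with a fold enrichment of 3.93 and a q-value of 0.0577. It was 1 gene of 10, and 24.7% of tested genes had a VCaP peak within 20 kb. It overlapped the open start region of PKP2 in all 3 RWPE1 lines. PKP2 had no ERG peak in RWPE1-ERG+mAKT, and its FPKM was 13.4 and 15.1 in the RWPE1 lines with ERG against 18.7 and 20.9 in those without.

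ERK2 ChIP-seq peaks of RWPE1-Vector lay within 20 kb of 7 of the 10 genes, and 76.6% of tested genes had one. PKP1 had 15 of the 38, against a median of 2 per tested gene, PKP2 had 6, DSP and JUP had 5 each, PERP 4, DSC3 2 and PKP3 1. In RWPE1-ERG the list was shorter, with 5721 peaks against 41276, and PKP1 had 4 peaks and PKP3 1, where 33.4% of tested genes had a peak. The PKP3 peaks lay just upstream of the start in both lines, with enrichments of 4.92 and 3.70. None of these peaks had a q-value of 0.01 or less. In the whole lists only 306 peaks of RWPE1-Vector and 178 of RWPE1-ERG did. H3K27me3, the mark that Polycomb leaves on silent genes, reached that q-value at 1 region within 20 kb of the 10 genes, where 11.2% of tested genes had one in RWPE1-ERG S96E. That region, in RWPE1-ERG S96E with an enrichment of 3.99, covered 39887397 to 39894153 on chromosome 17, 16.7 kb from the JUP locus and over HAP1. In the whole lists 29 regions of RWPE1-Vector, 39 of RWPE1-ERG and 3413 of RWPE1-ERG S96E reached that q-value. With so few in RWPE1-Vector and RWPE1-ERG, the lack of one near these genes says little about the mark there.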

How the data were processed

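The RNA-seq values are FPKM that the authors deposited in a Cuffdiff table, polyA-selected and on hg19, with 1 value per line pooled over 3 libraries. The table also holds the authors' fold changes, test statistics, p-values and q-values for pairs of lines, which were not used. Peak lists are MACS2 output that the authors deposited per library, the ChIP DNA being pooled from independent experiments. The authors' MACS2 lists give each peak's pileup signal, its ratio to background (fold enrichment) and the −log10 of its p-value and of its q-value. ChIP libraries in their headers hold 8393459 to 26454542 reads and the ATAC-seq of RWPE1+mAKT 35688481 fragments, and the depths of the RNA-seq and other lists are not given in the sources used here.

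From these, log2 ratios with a pseudocount of 1 FPKM, the distance of peaks from each locus and the motif counts were computed with Python 3.11.15, numpy 2.4.6 and pandas 2.3.3, and were checked on simulated data. The 4 gene names with more than 1 value per line were left out. Loci come from the RNA-seq table, and gene starts are those of the canonical transcripts of GENCODE release 44 lifted to GRCh37. A motif was searched on both strands, and 5919 of the 6143 VCaP windows were found in the reference. The genes named are the 10 members, the genes of set lists, the label checks and, for each member past the fold limit against vector, the 3 genes of most similar pattern. The members and the lists were chosen with earlier results of these data known. A peak list attached to a VCaP input, another attached to the ERG ChIP of LY294002-treated VCaP, and the RWPE1-Vector ATAC-seq are not used here, the first 2 because their labels and contents differ.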

Additional observations from a re-analysis of the deposited data

Results flagged for a closer look

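For 3 desmosome genes the effect of ERG had opposite signs without and with mAKT and differed by more than the 1.5-fold limit. The difference, with mAKT minus without on the log2(FPKM + 1) scale, was 0.98 for PERP, 0.88 for DSG3 and 0.65 for DSC3. For DSC3 the ratio with mAKT was only 0.05, so its change of sign rests on a small value. The difference was not tested, because each line has 1 pooled value. It depends on the scaling of RWPE1-ERG and was not counted with the lines rescaled to the same sum. Of the genes tested, 1.77%, 2.08% and 3.55% had a difference as high as that of PERP, DSG3 and DSC3, in this order.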

How the results depend on the processing

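No paired analysis was possible because the RNA-seq table holds 1 pooled value per line, and for the same reason no library could be left out in turn. Leaving out the filter on low values, or raising it to 5 FPKM, changed no count of desmosome genes past the limit. With a pseudocount of 0.1, 1 gene fell in ERG+mAKT over ERG (DSG2), as did 9.25% of tested genes. In ERG+mAKT over mAKT 1 rose (DSC2), as did 6.08% of tested genes. With a limit of 2-fold, 0 genes fell in ERG over vector, against 0.971% of tested genes. At that limit 1 rose in ERG+mAKT over ERG (PERP), against 2.02% of tested genes. Centring on the median of all tested genes gave 2 that rose in ERG+mAKT over vector (DSP and PERP), against 6.05% of tested genes. Rescaling FPKM to the same sum in each line was added after the data were seen. The sums range from 846035 in RWPE1-Vector to 1246060 in RWPE1-ERG, and 14 of the 20 genes with the highest values are small RNA genes. The rescaling moved the median of all tested genes by -0.48 in ERG over vector and by 0.32 in ERG+mAKT over ERG. In the first, 7 desmosome genes and 36.4% of tested genes fell, and DSG2, DSC2 and PKP3 turned from above to below 0. In the second, 6 desmosome genes and 13.5% of tested genes rose. DSG2 made 1 that fell in mAKT over vector, against 3.43% of tested genes. It also made 1 that fell in ERG+mAKT over vector, against 6.55%. No ratio past the limit changed sign under any of these settings. For ERG peaks of RWPE1-ERG+mAKT, a distance of 5 kb left 5 peaks at 2 genes, and a q-value of at most 0.01 left 0 at 0 genes, as it did for VCaP. A distance of 50 kb gave 73 ATAC-seq peaks in RWPE1-ERG and 58 in RWPE1-ERG+mAKT. The reference gene spans, and an overlap of 50% for shared peaks, moved no peak count by over 1.5 times.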
